A study of Arabidopsis thaliana with 24 samples.

Results

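A group of 102 Arabidopsis genes was examined whose transcripts lay higher from 4 h to 6 h of dexamethasone treatment than from 0.5 h to 2 h, by about 1.5-fold. They are called the moderate late risers here. A gene entered the group when its mean over 24 arrays was at least 5 on the log2 scale, its late mean (4, 5 and 6 h) exceeded its early mean (0.5, 1 and 2 h) by 0.5 to 0.9, and its early mean exceeded its 0 h mean by less than 0.4. Of 16552 genes with a value, 6173 reached the mean of 5 and 108 met all the limits. A further 6 of these belonged to gene groups that the rule leaves out and were not counted, namely AT1G51830, AT1G51840, AT1G51860, EXPA18, AT3G45710 and AT3G57020. All 102 remaining genes code for proteins and were measured by 1 probe set each.

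TMO5 and LHW are basic helix-loop-helix transcription factors that form a dimer. In the young root the dimer promotes the oriented divisions that widen the vascular tissue, partly through local synthesis of cytokinin. A fusion with the hormone-binding domain of the glucocorticoid receptor stays in the cytosol until a steroid such as dexamethasone releases it to the nucleus, so that the transfer to steroid sets when the factors can begin to act.

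The seedlings were Col-0 plants carrying 2 introduced constructs, pRPS5A::TMO5:GR and pRPS5A::LHW:GR, brought together by a cross and called dGR. The RPS5A promoter is active in dividing cells, so the fusions are not limited to vascular cells. All samples shared 2 days of cold and growth at 22 °C. Seedlings aged 4 days were moved to medium with dexamethasone. Root meristems were collected at 0, 0.5, 1, 2, 3, 4, 5 and 6 h, and 3 arrays were measured per time. All 8 groups share the line and differ by the labels only in time on dexamethasone. That time was 0 h in the first group, so a comparison with 0 h differs in treatment as well as in time. No arrays of untreated seedlings after transfer were used here, so transfer, steroid and elapsed time cannot be told apart. Whether the 3 repeats of a time were grown separately is not in the labels, and a p-value here may therefore measure technical spread alone. In RNA from whole meristems, fewer cells of a type and less RNA per cell cannot be told apart.

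Array medians over all probe sets lay between 3.86 and 4.01, and 3 arrays per time limit how precise any mean can be. Repeat 3 stood apart, with the highest median over the group at each time from 0 to 3 h. The median deviation of the 102 genes from their own means was -0.54 and -0.48 in repeats 1 and 2 at 0 h and -0.09 in repeat 3. The same order gave -0.42, -0.27 and 0.07 at 2 h. It gave 0.16, 0.19 and 0.54 at 3 h, followed by 0.33, 0.38 and 0.34 at 6 h. The tissue label could be checked on BBM alone among 5 stem cell markers, and it lay between 4.52 and 5.60 over all arrays.

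**Figure D1:**
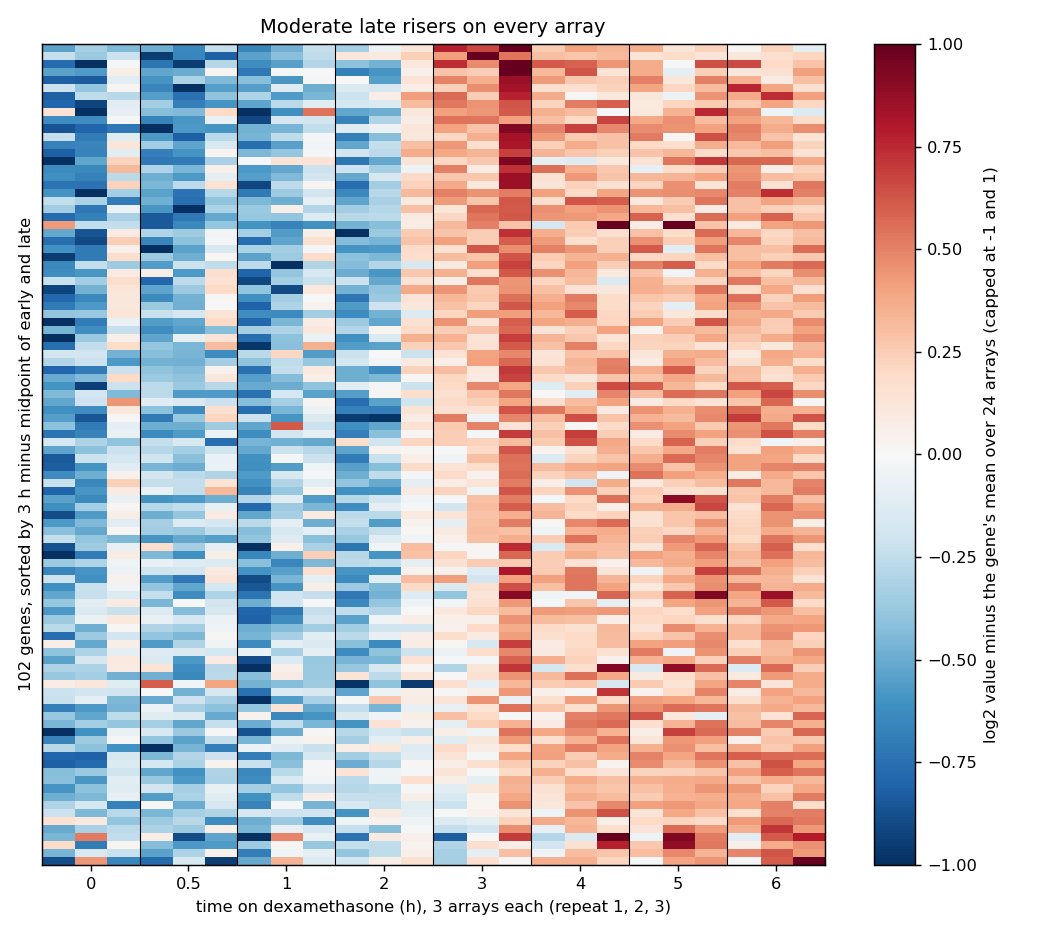
Heat map of the 102 moderate late risers (rows) on the 24 arrays (columns, by hours on dexamethasone and repeat), coloured by the log2 value minus the gene's mean, with the colour scale capped at -1 and 1. Rows are sorted by the 3 h value against the midpoint of the early and late means, and repeats 1 and 2 turn from mostly blue to mostly red between 2 h and 3 h. Repeat 3 is paler than the other repeats up to 1 h and already mostly red at 2 h, where its median is 0.07.

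The limits of the rule set the following values, which are given as a description with no test. The difference between late and early means had a median of 0.60, with quartiles of 0.54 and 0.68, or 1.51-fold at the median. The early mean lay above the 0 h mean in 74 of the 102 genes, with a median difference of 0.09 and a range from -0.49 to 0.39. The late mean exceeded the 0 h mean in all 102, by 0.22 to 1.27 with a median of 0.70. Without overlap, all 9 late arrays lay above all 9 early arrays in 34 of the 102 genes. The share was 0.659% over all genes (109 of 16552) and 1.33% among genes with a mean of at least 5. Over all genes 4.39% were called higher and 2.6% lower in this contrast by limma, from which nothing is read for the members. Within single repeats the median difference between late and early means was 0.72, 0.67 and 0.42 for repeats 1, 2 and 3.

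Genes on either side of each limit of the rule had close values. At the lower limit AT4G28940 (0.500), AT4G11190 (0.506) and AT3G17020 (0.506) lay just inside, and GSO1 (0.498), AT5G38020 (0.498) and AT1G32690 (0.497) just outside. At the upper limit UGT72E1 (0.899), AT3G01730 (0.889) and AT1G62975 (0.878) lay inside, and MT1C (0.902), AT5G19970 (0.947) and AT3G17130 (1.01) outside. For the early change from 0 h, AT1G62975 (0.391), AT5G57785 (0.370) and AT5G17390 (0.359) were inside and AT1G20380 (0.407), AT3G18280 (0.474) and AT4G30450 (0.507) outside. For the mean over 24 arrays, AT5G43540 (5.01), AT2G28990 (5.06) and AT5G47530 (5.13) were inside and AT1G49450 (4.99), AT5G24570 (4.98) and SMZ (4.96) outside.

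The rise was placed in time by the arrays of 3 h, which entered the rule only through the mean over 24 arrays. From one time to the next, the median change was 0.047 to 0.5 h, -0.022 to 1 h, 0.15 to 2 h, 0.52 to 3 h, -0.0085 to 4 h, 0.045 to 5 h and 0.024 to 6 h. Between 2 h and 3 h the change in the mean was above 0 for 101 of the 102 genes. The count was 80 between 1 h and 2 h and 46 between 3 h and 4 h. Over all genes the median change from 2 h to 3 h was -0.012. The 2 h arrays enter the rule through the early mean, which favours genes that lie low at 2 h. Part of the step from 2 h to 3 h may therefore be set by the rule. At 3 h the genes had covered a median of 94.2% of the difference between their early and late means. In 96 of them it was over 50%, and in 41 the 3 h mean was above the late mean. The repeats differed here. In repeats 1 and 2 the median deviation at 3 h, 0.16 and 0.19, lay below that of every late array of the same repeat (0.25 to 0.33 and 0.31 to 0.38). In repeat 3 it was 0.54, above its late arrays (0.29 to 0.40). The share covered at 3 h and the small step from 3 h to 4 h therefore average unlike courses.

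**Figure D2:**
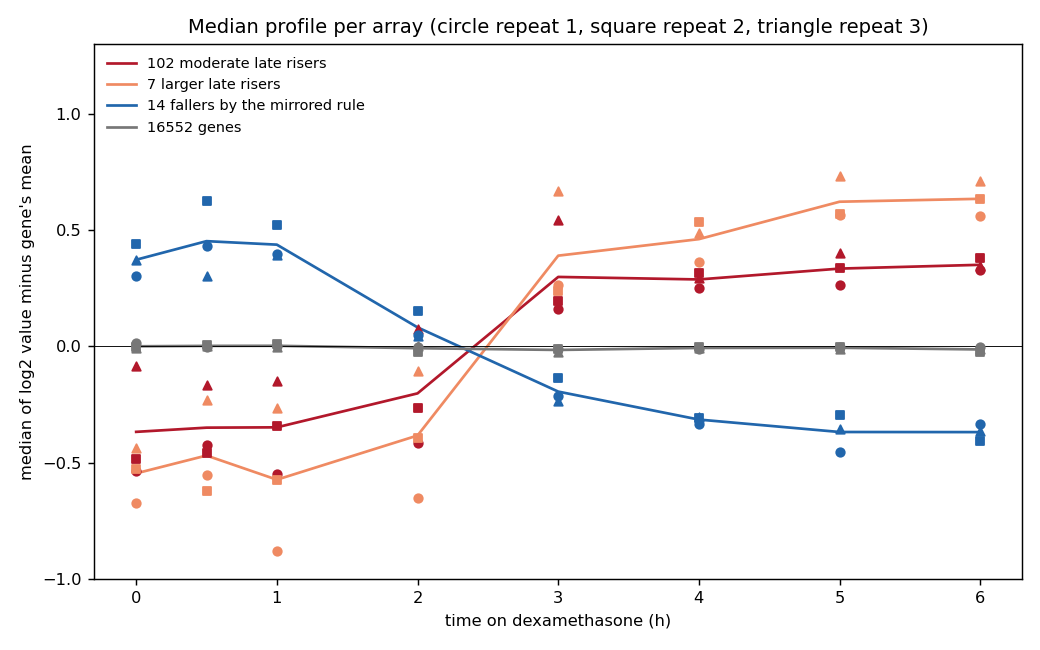
Median over genes of the log2 value minus each gene's mean, against hours on dexamethasone, with 1 point per array (circle, square and triangle for repeats 1, 2 and 3) and lines through the means of the repeats. The 102 moderate late risers lie below 0 up to 1 h, between 0.16 and 0.54 at 3 h and between 0.33 and 0.38 at 6 h, while the median of all 16552 genes stays close to 0.

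Set against the midpoint of the early and late means, the 3 h mean was higher in 96 of the 102 genes and lower in 6. The median difference was 0.25, compared with -0.015 over all genes and 0.0044 over the genes with a mean of at least 5, of which 51.7% lay above 0. The test called 2 of the 102 higher and 0 lower by limma at an adjusted p under 0.05, while over all genes 0.0665% were called higher and 0% lower. At an unadjusted p under 0.05 the counts were 43 higher and 0 lower by limma, and 8.19% of all genes passed in either direction. Without the third repeat of 0 to 2 h, 16 of the 102 were called higher, and the median difference was 0.32. That setting keeps repeat 3 of 3 h, which deviated together with the arrays left out and had the highest median over the group at 3 h. Both values may therefore be raised by that array, which was not tested. The median difference was 0.22, 0.22 and 0.38 within repeats 1, 2 and 3, with 87, 80 and 98 genes above 0. The 7 genes that passed the same rule with a difference over 0.9 had a median of 0.30, and 14 genes chosen by the mirrored rule for falls had -0.17.

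Both called genes, AT2G48080 and AT3G27950, were higher at 3 h than at any other time, and the annotation used here gives neither a name. AT2G48080 measured 7.05, 7.25 and 7.15 at 0 h, 6.93 to 7.71 with a median of 7.25 at the early times, 8.36, 8.26 and 8.60 at 3 h, and 7.50 to 7.99 with a median of 7.82 at the late times. Every 3 h array was above every other array of this gene, and the 3 h mean exceeded the midpoint by 0.88 ± 0.105 (SE, n = 24 arrays, limma adjusted p = 2.82e-04). AT3G27950 measured 7.22, 7.08 and 7.24 at 0 h, 6.50, 6.80 and 6.63 at 0.5 h, 7.57, 7.55 and 7.69 at 2 h, 7.87, 8.65 and 7.98 at 3 h, and 7.56 to 7.77 at the late times. Its 3 h arrays also lay above all others, with repeat 2 the highest, and its excess over the midpoint was 0.79 ± 0.107 (SE, n = 24 arrays, limma adjusted p = 0.0014). It had the lowest values at 0.5 h, below all arrays of 0 h. Both calls were kept under all 32 alternative settings, which include leaving out each array in turn.

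The 6 genes below the midpoint at 3 h were AT5G21940, AT2G25450, AT4G00910, AT4G38080, AT1G15740 and AT5G26290, named after their values were seen. AT2G25450 measured 8.46, 8.77 and 8.70 at 0 h, 8.23 to 8.97 at the early times, 8.59, 8.83 and 9.23 at 3 h and 8.88 to 9.55 at the late times. Its 3 h arrays overlapped both the early and the late arrays. AT5G21940 measured 4.33, 5.66 and 4.56 at 0 h, and its 3 h arrays, at 4.88, 5.38 and 5.23, lay within its early range of 4.28 to 5.55. AT5G26290 lies next to another of the 102 genes, AT5G26280, with no coding gene between them in the reference.

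**Figure D3:**
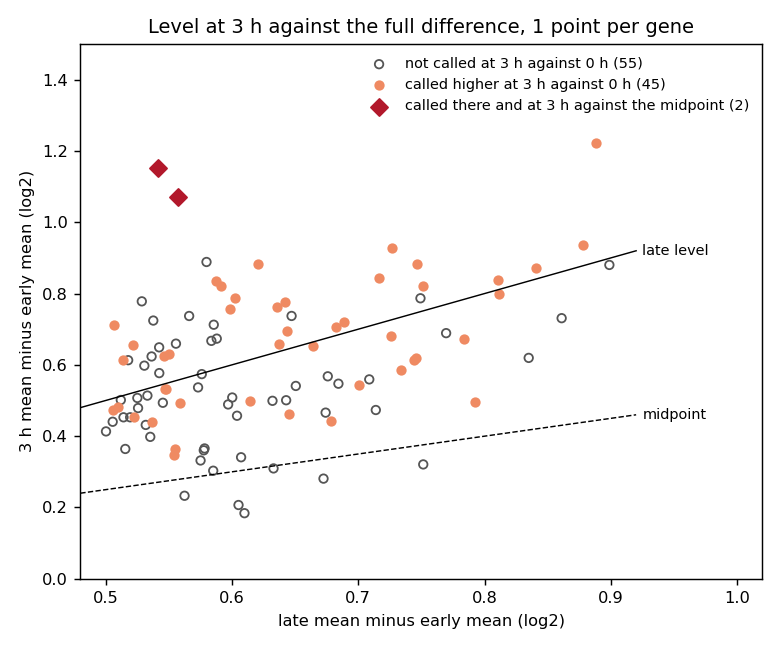
Each point is 1 of the 102 genes, placed by its late mean minus early mean (horizontal axis, log2) and by its 3 h mean minus early mean (vertical axis, log2). The dashed line marks the midpoint of the early and late means, which 96 genes exceed, and the solid line the late mean, which 41 exceed. Filled circles were called higher at 3 h than at 0 h, and the 2 diamonds were called against the midpoint as well.

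Compared with 0 h, the 3 h mean was higher in all 102 genes, by a median of 0.68 with a range from 0.021 to 1.38, while the median over all genes was -0.030. The test called 47 of the 102 higher and 0 lower by limma, and over all genes 2.33% were called higher and 1.17% lower. At an unadjusted p under 0.05 the counts were 85 and 0 by limma, and 17.5% of all genes passed in either direction. The 0 h arrays enter the rule through the limit on the early change, which keeps genes that lie high at 0 h. The count turned on single arrays: it was 16, 22 and 71 without repeat 1, 2 or 3 of 0 h, and 30 and 14 without repeat 2 or 3 of 3 h. Without the third repeat of all times from 0 to 2 h it was 76, and the median difference was 0.82. Repeat 3 of 3 h stays in that setting, so both values may be raised by it. In 70 of the 102 genes all 3 arrays of 3 h lay above all 3 of 0 h, against 9.27% of all genes. In 38 the 3 h arrays lay above all 9 early arrays, against 2.07% of all genes. Among genes with a mean of at least 5 these shares were 14.5% and 3.95%. The rule keeps genes that lie low on the early arrays, so the count of 38 is a description with no test. Of the 47 calls, 13 held under all 32 alternatives.

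The largest rises from 0 h to 3 h were in loci without a name in the annotation. AT3G01730 measured 5.00, 4.69 and 5.75 at 0 h and 6.51, 6.24 and 6.83 at 3 h, a rise of 1.38. AT1G62975 measured 4.53, 4.60 and 4.68 at 0 h and 5.80, 5.68 and 6.32 at 3 h, a rise of 1.33. In both genes the 3 h arrays were above all 0 h and early arrays. AT2G48080 followed with 1.26, AT3G51540 with 1.21, AT4G33730 with 1.16 and AT4G15390 with 1.15, all called and without overlap between 0 h and 3 h. AT1G64590 rose by 1.01 at a limma adjusted p of 0.0488, but its 0 h arrays spread from 4.50 to 6.06 and the highest of them lay above the lowest 3 h array, at 6.05. Its adjusted p was above 0.05 in 23 of the 32 alternatives and reached 0.272 without repeat 1 of 0 h. Its call was also lost without either other array of 0 h or 3 h, except repeat 3 of 0 h, at up to 0.238, and without most single arrays of other times, at up to 0.0604.

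Few of the genes carry a name. The annotation used here gives a symbol to 13 of the 102 and lists AT5G19800 under the synonym HRGP2, and it gives a symbol to 1799 of all 16552 genes. These 14 are described below by role, and the other loci are given by their numbers only. The rule chose genes whose early values lie below their late ones. Where late or 3 h arrays of a gene lie above its early arrays, this is therefore a description with no test.

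**Figure D4:**
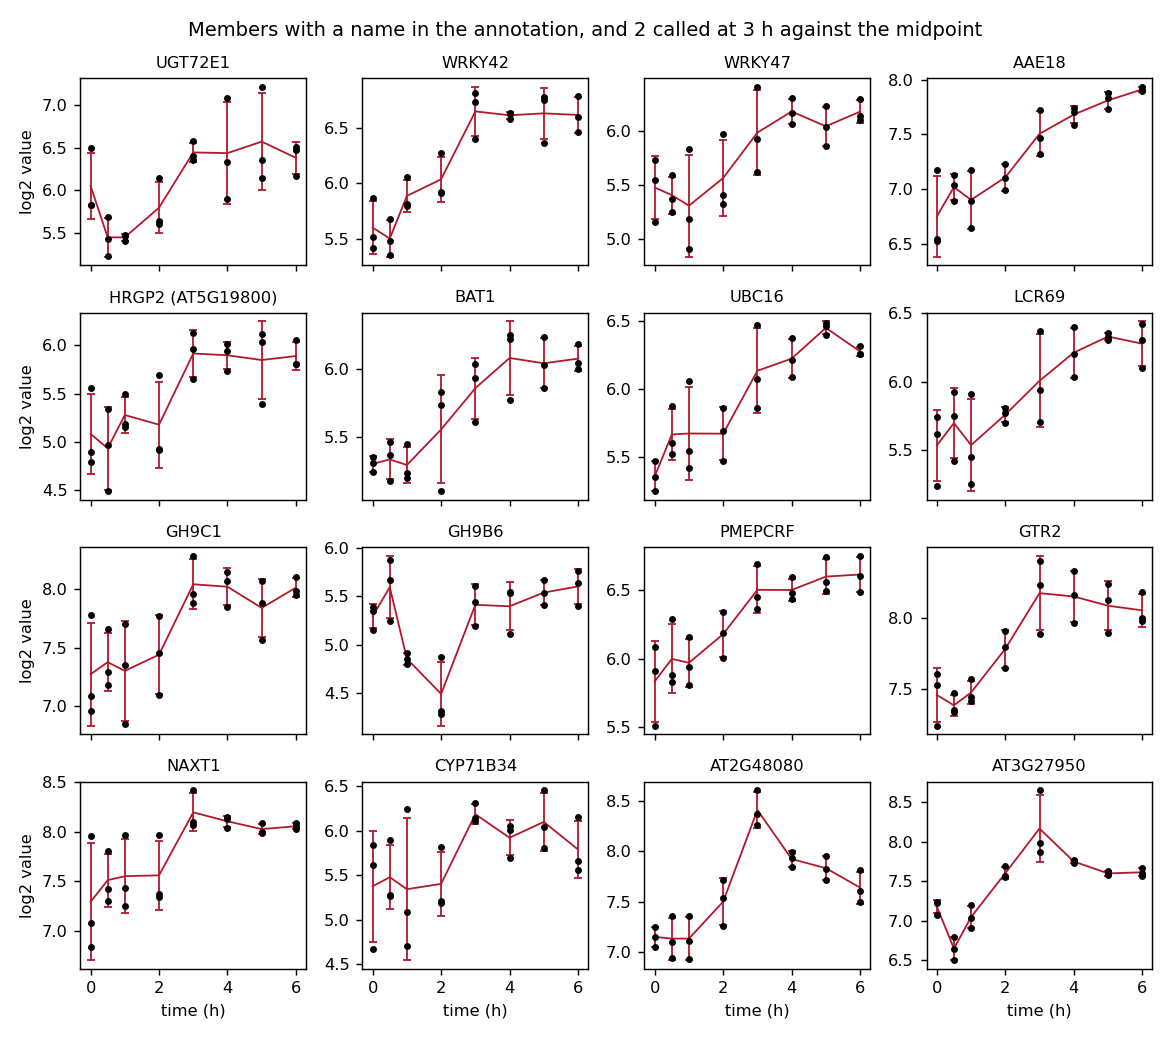
Log2 values against hours on dexamethasone for the 14 named genes and for AT2G48080 and AT3G27950, with 1 point per array and a line through the means of 3 arrays (bars, SD). Vertical scales differ between panels and do not start at 0. WRKY42, NAXT1 and GTR2 show a step between 2 h and 3 h, UGT72E1 and GH9B6 a dip between 0 h and 3 h, and AT2G48080 a peak at 3 h.

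Both named transcription factors belong to the WRKY family, whose members bind W-box elements in promoters. WRKY42, which acts in phosphate homeostasis, measured 5.42, 5.51 and 5.87 at 0 h, 5.35 to 6.27 with a median of 5.81 at the early times, 6.40, 6.73 and 6.81 at 3 h, and 6.36 to 6.78 with a median of 6.63 at the late times. All 3 h and late arrays lay above all 0 h and early arrays, and the rise from 0 h to 3 h was 1.05 (limma adjusted p = 3.65e-04). WRKY47 measured 5.16, 5.54 and 5.73 at 0 h, 4.91 to 5.97 with a median of 5.38 at the early times, 5.62, 5.93 and 6.41 at 3 h, and 5.87 to 6.30 with a median of 6.14 at the late times. Its arrays of 0 h and 3 h overlapped, and the difference of 0.51 was not called (limma adjusted p = 0.227). Among the 6173 genes with a mean of at least 5, 102 were in the group. Of these 6173, 45 matched the names of transcription factors, and WRKY42 and WRKY47 were in the group. The classes could match named genes only, so class members without a name are not counted.

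The cell wall class held 4 named genes of the group among 33 with a mean of at least 5. Named or not, 102 of 6173 genes with that mean were in the group, and the difference in share was not tested. GH9C1 and GH9B6 are endoglucanases of glycoside hydrolase family 9, which act on glucan chains of the wall. GH9C1 measured 6.96, 7.09 and 7.77 at 0 h, 6.85 to 7.77 with a median of 7.35 at the early times, 7.96, 7.88 and 8.28 at 3 h, and 7.57 to 8.14 with a median of 7.98 at the late times. Its 3 h arrays were above all earlier ones, with 0.77 over 0 h, which was not called (limma adjusted p = 0.0603). PMEPCRF, a pectin methylesterase, which removes methyl groups from wall pectin, measured 5.51, 5.91 and 6.08 at 0 h, 5.81 to 6.34 with a median of 6.01 at the early times, 6.45, 6.36 and 6.69 at 3 h, and 6.43 to 6.75 with a median of 6.56 at the late times. Its 3 h and late arrays were above all earlier ones, and it rose by 0.67 from 0 h to 3 h (limma adjusted p = 0.0165). That call was lost without repeat 1 of 0 h and without repeat 3 of 3 h, at an adjusted p of 0.109 in both.

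HRGP2 (AT5G19800) is named as a hydroxyproline-rich glycoprotein, a family of structural wall proteins. It measured 4.90, 4.79 and 5.56 at 0 h, 4.49 to 5.69 with a median of 5.15 at the early times, 5.66, 6.13 and 5.97 at 3 h, and 5.39 to 6.12 with a median of 5.94 at the late times. The 3 h arrays were above those of 0 h, by 0.83 in the mean, which was not called (limma adjusted p = 0.0634).

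GH9B6 had another course. The arrays of 0 h gave 5.35, 5.39 and 5.15, those of 0.5 h gave 5.88, 5.24 and 5.67, and those of 1 h gave 4.80, 4.85 and 4.92. The arrays of 2 h gave 4.29, 4.87 and 4.32, and those of 3 h gave 5.44, 5.19 and 5.61. Its values of 1 h and 2 h lay below those of every other time, and its late arrays, from 5.11 to 5.76, overlapped those of 0 h. It fell by 1.102 from 0.5 h to 2 h (limma adjusted p = 0.00367), and its 3 h mean was 0.12 above that of 0 h, which was not called (limma adjusted p = 0.783).

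Both named transporters belong to the NPF family of plasma membrane carriers. NAXT1, a nitrate excretion transporter, measured 6.84, 7.08 and 7.96 at 0 h, 7.26 to 7.97 with a median of 7.43 at the early times, 8.10, 8.07 and 8.42 at 3 h, and 7.99 to 8.15 with a median of 8.06 at the late times. All its 3 h and late arrays were above all earlier ones, though repeat 3 at 0 h, 1 h and 2 h came within 0.1 of the later values, and the rise from 0 h to 3 h was 0.90 (limma adjusted p = 0.0307). That call was lost without repeat 1 or 2 of 0 h, at adjusted p of 0.181 and 0.127, and without repeat 1, 2 or 3 of 3 h, at 0.0605, 0.0538 and 0.154. GTR2, a glucosinolate transporter, measured 7.53, 7.61 and 7.25 at 0 h, 7.34 to 7.91 with a median of 7.47 at the early times, 7.89, 8.23 and 8.40 at 3 h, and 7.90 to 8.33 with a median of 8.13 at the late times. Its 3 h arrays were above those of 0 h, it rose by 0.71 (limma adjusted p = 0.00467), and the call held under all 32 alternatives.

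Enzymes of small molecules made up 4 of the named genes. UGT72E1, a glucosyltransferase that acts on aldehydes of the lignin pathway, measured 6.50, 5.83 and 5.83 at 0 h, 5.23 to 6.15 with a median of 5.48 at the early times, 6.40, 6.58 and 6.36 at 3 h, and 5.90 to 7.22 with a median of 6.36 at the late times. Its 3 h arrays were above all early arrays, but one array of 0 h lay among them, and 3 h exceeded 0 h by 0.39, which was not called (limma adjusted p = 0.477). Its early mean was 0.49 below its 0 h mean, so its difference between late and early times, 0.90, was larger than that between late times and 0 h. CYP71B34, a cytochrome P450, measured 5.85, 4.67 and 5.62 at 0 h, 4.70 to 6.24 with a median of 5.26 at the early times, 6.11, 6.14 and 6.31 at 3 h, and 5.56 to 6.45 with a median of 6.01 at the late times. Its 0 h and early arrays spread widely, and the difference of 0.81 between 3 h and 0 h was not called (limma adjusted p = 0.185).

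BAT1 is an acyltransferase that lowers active brassinosteroids, a class of growth hormones. It measured 5.24, 5.35 and 5.31 at 0 h, 5.10 to 5.83 with a median of 5.36 at the early times, 5.61, 5.93 and 6.04 at 3 h, and 5.77 to 6.25 with a median of 6.04 at the late times. Its 3 h and late arrays were above all arrays of 0 h, and the difference of 0.56 at 3 h was not called (limma adjusted p = 0.0701). AAE18, an acyl-activating enzyme, measured 6.55, 6.53 and 7.18 at 0 h, 6.64 to 7.23 with a median of 7.04 at the early times, 7.47, 7.32 and 7.73 at 3 h, and 7.59 to 7.93 with a median of 7.83 at the late times. All 3 h and late arrays lay above all earlier ones, and it rose by 0.75 from 0 h to 3 h (limma adjusted p = 0.00827). The adjusted p was 0.0591 and 0.0539 without repeat 1 or 2 of 0 h and 0.0652 without repeat 3 of 3 h.

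UBC16, an E2 enzyme that passes ubiquitin on to target proteins, measured 5.25, 5.36 and 5.47 at 0 h, 5.42 to 6.06 with a median of 5.60 at the early times, 5.86, 6.07 and 6.47 at 3 h, and 6.09 to 6.49 with a median of 6.31 at the late times. Its late arrays were above all early ones, and it rose by 0.77 from 0 h to 3 h (limma adjusted p = 0.00915). That adjusted p was 0.0553 without repeat 1 of 0 h and 0.074 without repeat 3 of 3 h. LCR69, a member of the plant defensin family of small secreted peptides, measured 5.62, 5.74 and 5.24 at 0 h, 5.25 to 5.92 with a median of 5.75 at the early times, 5.70, 5.94 and 6.37 at 3 h, and 6.03 to 6.42 with a median of 6.30 at the late times. Its late arrays were above all early ones while its 3 h arrays overlapped those of 0 h, and the difference of 0.47 was not called (limma adjusted p = 0.158).

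Within the early times, the 2 h mean was above the 0.5 h mean in 70 of the 102 genes, with a median difference of 0.11. Over all genes the median was -0.011, and 49.9% of genes with a mean of at least 5 lay above 0. The test called 3 higher and 1 lower by limma, and over all genes 0.211% were called higher and 0.115% lower. At an unadjusted p under 0.05 the counts were 21 higher and 2 lower by limma, and 7.82% of all genes passed in either direction. Without the third repeat of 0 to 2 h the test called 1 higher and 0 lower by limma, and the median difference was 0.074. The median was -0.044 within repeat 1, with 47 of the 102 genes above 0, and 0.14 and 0.22 within repeats 2 and 3. In 19 genes all 2 h arrays lay above all 0.5 h arrays, against 5.36% of all genes.

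The gene called lower was GH9B6, described above, and the 3 called higher were AT3G27950, AT4G22212 and AT1G62975. AT3G27950 rose by 0.96 (limma adjusted p = 0.0023). AT4G22212 measured 6.46, 7.11 and 6.88 at 0.5 h and 7.62, 7.67 and 7.44 at 2 h, a rise of 0.76 (limma adjusted p = 0.0055). Its 0.5 h mean was the lowest of its 8 times, and its 3 h arrays, at 7.76, 7.64 and 7.75, were close to those of 2 h. AT1G62975 measured 4.22, 4.82 and 4.80 at 0.5 h and 5.27, 5.33 and 5.52 at 2 h, a rise of 0.76 (limma adjusted p = 0.028). Its call was lost without repeat 1 of 0.5 h and without repeat 1, 2 or 3 of 2 h, at adjusted p of 0.168, 0.0722, 0.0861 and 0.139. Without the third repeat of 0 to 2 h the adjusted p was 0.0615 for AT3G27950, 0.155 for AT1G62975 and 0.118 for GH9B6.

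Within the late times, the 6 h mean was above the 4 h mean in 68 of the 102 genes, with a median difference of 0.054. Over all genes the median was -0.0046, and 49.0% of genes with a mean of at least 5 lay above 0. Within repeats 1, 2 and 3, 75, 57 and 56 of the 102 genes lay above 0. By limma 0 were called in either direction, and over all genes 0% were called higher and 0% lower. At an unadjusted p under 0.05 there were 2 higher and 1 lower by limma, and 3.79% of all genes passed in either direction. In 11 of the 102 genes all 6 h arrays were above all 4 h arrays, against 4.74% of all genes. The highest mean fell on 3 h for 28 of the genes, on 4 h for 15, on 5 h for 23 and on 6 h for 36.

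Markers of other cell types were read beside these values. Among root hair and epidermis markers 2 of 12 had a value, EXPA7 and EXPA18, and their mean ran from 7.01 to 7.75 at 0 h, 7.22 to 8.03 at the early times, 8.00 to 8.41 at 3 h and 7.86 to 8.13 at the late times. At 3 h they were 0.77 and 0.96 above 0 h (limma adjusted p = 0.0415 and 0.026). Endodermis markers had 2 of 10 measured, GSO1 and AT1G61590, the latter in the group, and their mean ran from 6.54 to 7.51 at 0 h, 6.83 to 7.64 at the early times, 7.63 to 8.03 at 3 h and 7.63 to 7.87 at the late times. GSO1, a receptor kinase of the Casparian strip pathway, was 0.77 higher at 3 h than at 0 h (limma adjusted p = 0.0395). The single shoot marker measured of 11, RCA, an activator of Rubisco, lay between 4.49 and 4.65 at 0 h and between 4.98 and 5.53 at 3 h, a rise of 0.68 (limma adjusted p = 0.00884). These rising markers moved with the moderate late risers, and their part in the result was not tested. AT1G61590 was chosen by the rule and EXPA18 met its numerical limits, so the late rise of both was set in advance. The 2 phloem markers measured of 7, OPS and CLE45, had means between 2.79 and 3.50 at 0 h and between 3.30 and 3.85 at 3 h. Neither was called at 3 h against 0 h. The mitosis markers AUR1 and AUR2 and the stem cell marker BBM changed by 0.22, 0.43 and -0.27 and were not called either. No xylem or root cap marker was measured by a probe set with a single name.

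Of all 13 gene lists, which hold 141 genes, 22 genes had a value and 2 were in the group. These were AT1G61590 and, from the nitrate list, NAXT1. The lists for mitosis (2 of 7 measured), cytokinin synthesis and response (2 of 19), the TMO5 and LHW module (6 of 13), suberin and lignin (1 of 20) and iron (2 of 13) had 0 members in the group. At 3 h against 0 h the test called 2 of the 6 module genes and 1 of the 2 cytokinin genes higher by limma. In either list 0 were called lower, and the median differences were 0.35 and 0.62. The module calls were DOF2.1, 1.16 higher (limma adjusted p = 1.49e-04), and SACL2, 0.61 higher (limma adjusted p = 0.00329). HCT, the 1 measured gene of the suberin and lignin list, was also called, 0.39 higher (limma adjusted p = 0.0393). The cytokinin call was ARR15, with means of 1.99 at 0 h and 3.06 at 3 h, while RR16 had 1.38 and 1.55. Their changes were 1.07 and 0.17. These means lie below the median of every array, 3.86 at the lowest, and no detection calls bound such low signals. At 2 h against 0.5 h DOF2.1 and ARR15 were called higher as well, by 0.98 and 1.16 (limma adjusted p = 0.00306 and 0.0485).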

How the data were processed

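Root meristem RNA was hybridised to Affymetrix whole-transcript arrays. The deposited log2 values were made by the authors with RMA, per the submitters' processing notes, a method that corrects background, quantile-normalizes the arrays and sums up the probes of a set. Its version and the genome build were not given in the sources used here. Quantile normalization can mask a common shift of most genes, and no detection calls come with the values.

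Of 38408 probe sets, 16746 named 1 gene, 758 named several and 20904 were unnamed here. Those with 1 gene were averaged per gene, which gave 16552 genes, and 16741 matched the RefSeq table (TAIR10.1) for symbols. A model with 8 time means was fitted over the 24 arrays (lmFit and eBayes of limma 3.58.1, under R 4.3.3). P-values were adjusted by Benjamini-Hochberg over all genes, and a gene was called at an adjusted p under 0.05. The difference between late and early times chose the members, so it was not tested in them. The 4 contrasts tested were 3 h against the midpoint, 3 h against 0 h, 2 h against 0.5 h and 6 h against 4 h.

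The members and lists were chosen with earlier results of these data known. Genes named are up to 4 members per annotated class, up to 8 called members per direction and contrast, the genes at the limits of the rule, neighbours, and list genes that were members or called; part of these are given. AAE18, BAT1 and GTR2, which fell in no class, were added after their values were seen, because the annotation names them.

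The fit was tested on simulated data for 3 h against the midpoint, with 200 of 16552 genes given a change per draw and 5 draws made. Changes of 0.3 on the log2 scale were recovered in 19.6% of cases, changes of 0.6 in 72.4% and changes of 1 in 94.4%. Of the calls, 4.92% were false. The simulated arrays varied independently, whereas the real arrays of repeat 3 from 0 to 3 h deviated together. These rates may therefore not hold for the real arrays. Alternatives were each array left out, the brightest probe set per gene, the dimmest 25% of genes left out, a replicate block, centring on array medians, another round of quantile normalization, weights per array, and a variance trend with robust estimation. Leaving out repeat 3 at all times from 0 to 2 h was added after the data were seen.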

Additional observations from a re-analysis of the deposited data

How the results depend on the processing

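Replicate numbers did not pair the samples throughout: over 84 pairs of arrays with the same number, the correlation of deviations from the time means had a median of 0.034 and was above 0.1 in 14. Of these, 10 were the 10 pairs of repeat 3 among the times from 0 to 3 h, at 0.107 to 0.223, so those arrays deviated together. With the replicate block, 72 of the 102 genes were called higher at 3 h than at 0 h, compared with 47 without it, and no other count of calls moved by over 1.5 times. Without the third repeat of 0 to 2 h, chosen after the data were seen, 16 genes were called higher at 3 h against the midpoint (2 with all arrays), 76 higher at 3 h against 0 h, and 1 higher and 0 lower at 2 h against 0.5 h by limma (3 and 1 with all arrays). That setting keeps repeat 3 of 3 h, so its counts at 3 h may be raised by that array. Leaving out each array in turn gave 2 to 2 called higher at 3 h against the midpoint, 14 to 71 at 3 h against 0 h, 2 to 4 higher and 1 to 1 lower at 2 h against 0.5 h, and 0 to 0 at 6 h against 4 h. Under the other settings the 3 h against 0 h count lay between 35 with array weights and 61 with a variance trend. The shares of all genes given above belong to the main fit, and none is given for the alternatives. A count that moved can therefore not be read as particular to these genes. Membership itself moved: 52 genes passed with a mean of at least 6, 156 without the third repeat of 0 to 2 h (78 of the 102 among them), and 80 to 126 without single arrays. Median centring gave 81 members, 79 of them in the group, and a second quantile normalization 101. Of the 102 genes, 51 passed the rule whichever array was left out. Median centring moved the median of all genes between 3 h and 0 h from -0.03 to -0.08. No called gene changed sign in any setting run. Genes already called were unlikely to do so with 1 array left out, so nothing is read from this. Most calls at 3 h against 0 h were lost in some setting. The number of arrays limits changes near 0.3, and no detection calls bound low signals.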

Other observations

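Probe sets that the annotation does not name were put to the numerical limits of the same rule, without averaging. Of 8136 such probe sets with a mean of at least 5, 127 passed (1.56%), and 122 of them lay above the midpoint of their early and late means at 3 h, with a median difference of 0.26. Among probe sets with 1 gene, 110 of 6251 passed (1.76%), and 104 lay above the midpoint at 3 h, also with a median of 0.26. Among probe sets that name several genes, 6 of 359 passed (1.67%), and 3 lay above the midpoint. These shares are descriptions with no test, and the unnamed probe sets may include further probe sets of the genes described above.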
